A study of Mus musculus with 10 samples.

Results

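The genes examined here encode enzymes that make and break down leukotrienes and platelet-activating factor (PAF), lipid messengers of inflammation. They were chosen by name, as Alox5, Alox5ap, Ltc4s, Mgst3, Ggt1 and Pla2g7, with earlier results of these data known. All 6 were found among the 12160 genes of the expression table. Expression was measured by Smart-Seq2, a method that sequences full-length cDNA from very few cells, in 10 libraries, 5 of pancreatic tuft cells and 5 of non-tuft epithelial cells. Each library was made from 100 cells sorted from the pancreas of wild type male mice with pancreatitis, and by the labels each tuft library came from a single mouse. By the study's text, cells of both groups were sorted from 5 mice with pancreatitis, so the groups share animals, but the sources used here do not say which libraries came from the same mouse. The mice had received 4 cycles of caerulein, a cholecystokinin-like peptide that injures acinar cells, at 250 μg/kg, with 0 to 2 days of recovery. All animals in both groups carried this injury, so no uninjured pancreas enters the comparison. The sorted tuft cells were Cd45-neg; EpCAM+; Siglec f+ and the non-tuft epithelial cells were Cd45-neg; EpCAM+; Siglec f-neg. The mice were outbred CD-1 by the study's methods, while the strain label reads Mixed, and their age is not given in the sources used here. Values are log2(RPKM + 1), where RPKM is a read count adjusted for the length of the transcript and for how many reads of the library mapped.

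Leukotrienes are made from arachidonic acid, which phospholipases A2 release from membranes. The 5-lipoxygenase Alox5 acts together with its membrane partner Alox5ap, also called FLAP, to form the unstable leukotriene A4. From there Ltc4s adds glutathione to give leukotriene C4, the first of the cysteinyl leukotrienes, while Lta4h gives leukotriene B4. The enzyme Ggt1, a gamma-glutamyltransferase at the cell surface, trims leukotriene C4 to leukotriene D4. Mgst3 belongs to the same family of small membrane proteins as Ltc4s and Alox5ap and has glutathione transferase activity. Pla2g7 encodes a secreted acetylhydrolase that inactivates PAF. Intestinal tuft cells are known as an epithelial source of cysteinyl leukotrienes.

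The promoter windows of genes that were higher in tuft cells are shown so that their sequence can be read beside their levels. Each window runs 5′ to 3′ on the strand of the gene and holds 250 bases before and 50 bases after an annotated start (RefSeq, GRCm38.p6). A window was matched for 5 of the 6 genes. The Alox5 window is chr6:116461129-116461428 (minus strand), that of Ltc4s is chr11:50238483-50238782 (minus strand), that of Mgst3 is chr1:167393792-167394091 (minus strand) and that of Pla2g7 is chr17:43568201-43568500 (plus strand). Capitals mark the GC box GGGCGG on either strand.
Alox5: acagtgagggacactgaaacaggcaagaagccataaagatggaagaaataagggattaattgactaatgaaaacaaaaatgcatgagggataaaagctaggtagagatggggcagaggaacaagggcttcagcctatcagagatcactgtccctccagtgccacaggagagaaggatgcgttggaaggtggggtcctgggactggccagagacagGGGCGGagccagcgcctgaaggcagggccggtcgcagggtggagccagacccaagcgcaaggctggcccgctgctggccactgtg
Ltc4s: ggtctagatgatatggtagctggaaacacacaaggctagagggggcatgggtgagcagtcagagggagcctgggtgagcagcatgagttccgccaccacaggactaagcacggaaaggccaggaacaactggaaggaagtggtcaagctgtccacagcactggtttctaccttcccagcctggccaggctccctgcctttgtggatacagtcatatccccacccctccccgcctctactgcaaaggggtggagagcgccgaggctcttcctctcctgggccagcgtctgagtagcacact
Mgst3: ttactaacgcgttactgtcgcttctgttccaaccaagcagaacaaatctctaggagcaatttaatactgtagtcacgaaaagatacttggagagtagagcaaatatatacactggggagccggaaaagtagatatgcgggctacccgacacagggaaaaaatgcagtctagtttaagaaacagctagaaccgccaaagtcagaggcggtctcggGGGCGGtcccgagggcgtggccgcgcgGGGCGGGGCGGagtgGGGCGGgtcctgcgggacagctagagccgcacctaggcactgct
Pla2g7: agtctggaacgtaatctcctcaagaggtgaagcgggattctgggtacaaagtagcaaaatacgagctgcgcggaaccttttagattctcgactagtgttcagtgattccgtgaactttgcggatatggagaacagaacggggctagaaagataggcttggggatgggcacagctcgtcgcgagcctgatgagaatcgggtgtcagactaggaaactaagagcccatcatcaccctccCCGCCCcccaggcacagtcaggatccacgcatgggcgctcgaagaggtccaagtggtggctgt

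The GC box occurred 4 times in the Mgst3 window, where 2 of the matches share a base, and 1 time each in the Alox5 and Pla2g7 windows. No match was found in the Ltc4s window. Over all 32851 windows of this length, 35.7% held it. The octamer core ATGCAAA, bound by POU factors, was in none of the 4 windows and in 4.63% of all windows. The GATA motif AGATAA was likewise in none of the 4 and in 11.2% of all windows. Of the 4 Ggt1 windows, 1 held the GATA motif and 2 held a GC box. GC content ranged from 54.0% in Pla2g7 to 58.7% in Ltc4s among the printed windows, against a median of 52.7% over all windows.

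Of the 6 genes, 5 were higher and 1 was lower in tuft cells at the thresholds of the study, a fold change over 4 with an adjusted p under 0.05 from limma. The lower call, that of Ggt1, did not hold when the replicate number was fitted as a block. Among all 12160 genes tested with limma, 4.32% were called higher and 3.99% lower (525 and 485 genes), or 8.31% in either direction. Since the 6 genes were chosen with earlier results known, their count beside these shares is no test. When each library was centred on its ribosomal protein genes instead, the middle of all log2 fold changes shifted by 0.77, 1230 genes were called higher and 227 lower, and the 5 enzyme genes were still called higher while Ggt1 was no longer called lower. All 5 genes that were called higher had every tuft library above every non-tuft library, a separation seen for 6.31% of all genes (5.12% had every tuft library below). Because the libraries are bulk samples, fewer expressing cells and less RNA per cell cannot be told apart.

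**Figure D1:**
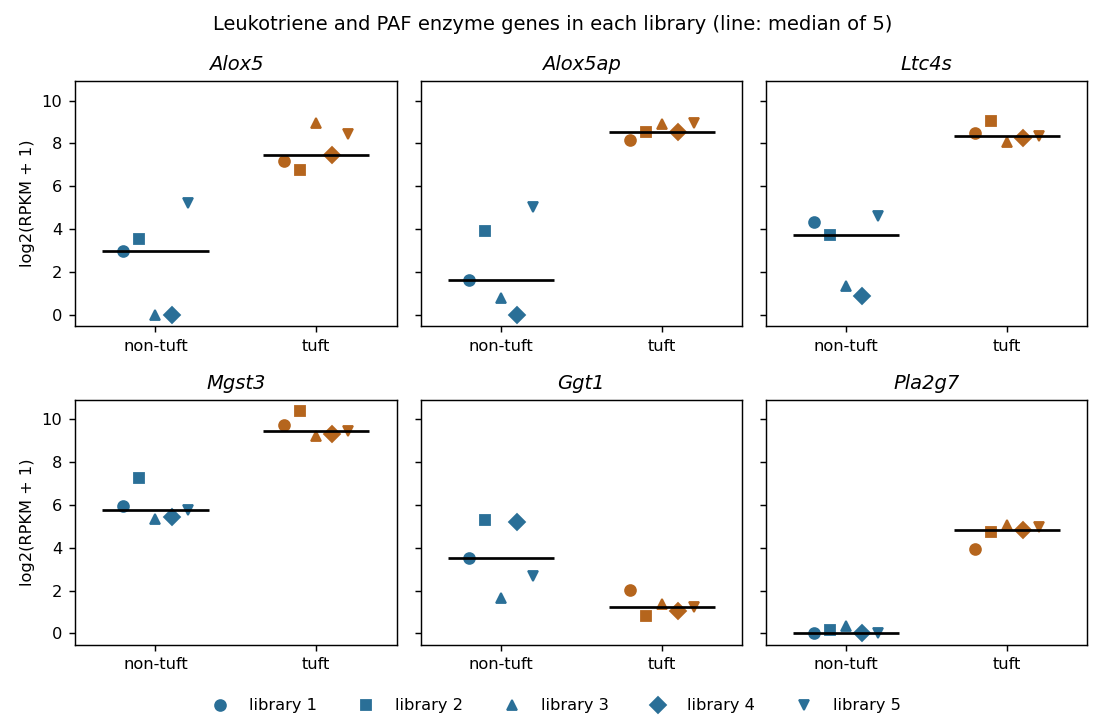
Level of each gene in log2(RPKM + 1) in the 5 non-tuft (blue) and 5 tuft (brown) libraries; the symbol shape gives the library number and the black line the median. The groups are apart for all genes but Ggt1, whose tuft library 1 (2.01) lies above non-tuft library 3 (1.65).

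Alox5, which opens the pathway (NCBIM37, also called mm9, chromosome 6, 116360095 to 116411196), was at 7.20, 6.75, 8.95, 7.47 and 8.45 in tuft libraries 1 to 5. In non-tuft libraries 1 to 5 it was at 2.97, 3.54, 0, 0 and 5.23. The tuft libraries were all high, whereas the non-tuft libraries ranged from no listed signal to a clear level. The log2 fold change was 5.42 (SE 0.92, limma adjusted p = 0.00207). Because 2 non-tuft libraries were at 0, the size depends on the value added before the logarithm, and the log2 fold change was 6.81 with 0.1 added and 3.71 with 10 added.

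Alox5ap, which presents arachidonic acid to the lipoxygenase (chromosome 5, 150076634 to 150099621), was at 8.18, 8.54, 8.89, 8.54 and 8.94 in tuft libraries 1 to 5. The non-tuft values were 1.61, 3.92, 0.78, 0 and 5.01. It had the largest difference of the 6 genes on this scale, a log2 fold change of 6.35 (SE 0.82, limma adjusted p = 2.84e-04). With 0.1 added to each RPKM in place of 1, Pla2g7 (7.37) was level with Alox5ap (7.35). The tuft values of Alox5ap were also the most uniform, with an SD of 0.31 (n = 5 libraries), compared with 0.91 for Alox5.

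Ltc4s, which commits leukotriene A4 to the cysteinyl branch (chromosome 11, 50049971 to 50052118), was at 8.47, 9.05, 8.06, 8.24 and 8.36 in tuft libraries 1 to 5. It was at 4.34, 3.75, 1.34, 0.87 and 4.62 in the non-tuft libraries and so above the lowest listed value in all 10. The means were 8.44 ± 0.38 and 2.99 ± 1.75 (SD, n = 5 libraries each). The log2 fold change of 5.45 (SE 0.70, limma adjusted p = 2.97e-04) was close to that of Alox5. Exons of Ltc4s overlap those of Gm16641, a noncoding gene on the other strand, and reads of the pair cannot be told apart without strand.

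Mgst3 (chromosome 1, 169302097 to 169323972) was at 9.73, 10.39, 9.21, 9.29 and 9.45 in tuft libraries 1 to 5 and at 5.92, 7.23, 5.35, 5.45 and 5.74 in the non-tuft libraries. Its level was thus substantial in both groups, above 99.5% of listed genes by mean in tuft cells and above 92.9% in the other group. The log2 fold change was 3.68 (SE 0.45, limma adjusted p = 1.90e-04), a 12.8-fold difference.

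Pla2g7, the PAF acetylhydrolase gene (chromosome 17, 43705047 to 43749150), was at 3.95, 4.73, 5.07, 4.82 and 4.98 in tuft libraries 1 to 5. Its non-tuft values were 0, 0.17, 0.33, 0 and 0, where 0.17 is the lowest value of library 2. Only non-tuft library 3 was therefore above its lowest listed value. The log2 fold change of 4.61 (SE 0.36, limma adjusted p = 8.04e-06) had the smallest standard error of the 6 genes. But 1 added to each RPKM understates the fold of a gene this low, and 4 non-tuft values were at the lowest listed value. With 0.1 added in place of 1, its standard error was 0.51, above that of Mgst3 (0.49). Its exons overlap those of 1700071M16Rik on the other strand, which cannot be told apart without strand.

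Ggt1, the leukotriene C4 trimming enzyme (chromosome 10, 75024349 to 75048945), went the other way. It was at 2.01, 0.82, 1.37, 1.05 and 1.21 in tuft libraries 1 to 5 and at 3.51, 5.30, 1.65, 5.22 and 2.67 in the non-tuft libraries. The tuft values lay within a narrow low range and the non-tuft values were widely spread, at 1.29 ± 0.45 and 3.67 ± 1.59 (SD, n = 5 libraries each). The log2 fold change was -2.38 (SE 0.66, limma adjusted p = 0.0331). Ggt1 was lower in the tuft library of all 5 same-numbered pairs, but with the replicate number as a block it was no longer called (limma adjusted p = 0.0566). This call was lost without non-tuft library 1, 2 or 4, and without tuft library 2, 3, 4 or 5 (limma adjusted p up to 0.0811), and the log2 fold change lay between -2.88 and -1.97 over all 10 omissions.

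In a two-sided exact permutation test with 252 arrangements, each of the 5 genes that were higher in tuft cells gave p = 0.00794. That is the smallest value this test can give. It treated the libraries as independent, although the groups share animals, and the difference within mice was not tested. Ggt1 gave an exact permutation p = 0.0159. None of the 5 genes that were higher lost its call when any 1 library was left out. Their log2 fold changes then lay between 4.83 and 6.14 for Alox5, 5.79 and 7.04 for Alox5ap, 4.92 and 5.86 for Ltc4s, and 4.52 and 4.80 for Pla2g7, while that of Mgst3 stayed at 3.48 or above.

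**Figure D2:**
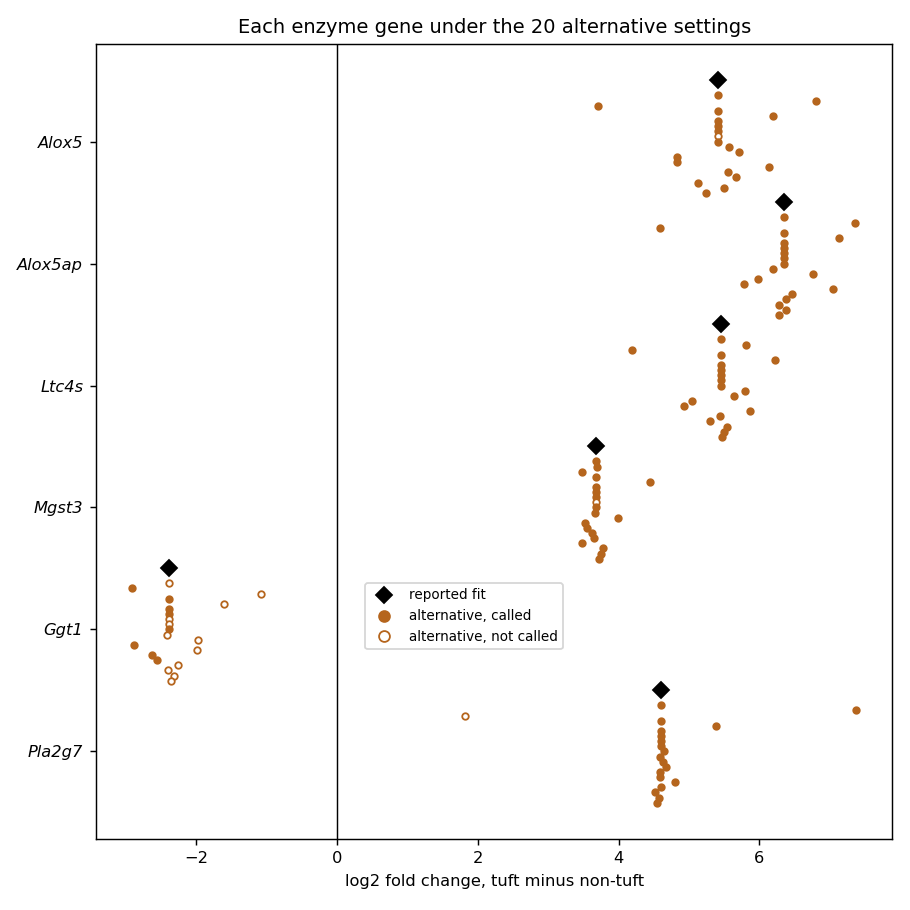
Log2 fold change (tuft minus non-tuft, horizontal axis) of each gene in the reported fit (black diamond) and under 20 alternative settings (circles, filled where the gene was called and open where it was not). Alox5ap and Ltc4s kept their call in all 20, and Ggt1 in 8 of 20, with no change of direction for any gene.

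RPKM is scaled to transcript length, so levels can be ordered between genes within a library. In tuft cells the order by mean log2 level was Mgst3 (9.61), Alox5ap (8.62), Ltc4s (8.44), Alox5 (7.76), Pla2g7 (4.71) and Ggt1 (1.29). Mgst3 was above Alox5ap in all 5 tuft libraries, by 1.00 ± 0.67 (SD, n = 5 libraries). Alox5ap and Ltc4s could not be ranked, since their difference of 0.18 ± 0.57 (SD, n = 5 libraries) changed sign between libraries. The same held for Ltc4s and Alox5, at 0.67 ± 1.23 (SD, n = 5 libraries). Alox5ap was above Alox5 in 4 of 5 tuft libraries, by 0.85 ± 0.69 (SD, n = 5 libraries). The 3 genes that together make leukotriene C4 from arachidonic acid thus kept no fixed order in the tuft libraries. Their differences within a library were as large as 2.31 (Ltc4s above Alox5). Their means were above 98.0% (Alox5) to 99.0% (Alox5ap) of all listed genes. Pla2g7 was lower than Alox5 by 3.06 ± 0.73 (SD, n = 5 libraries) and higher than Ggt1 by 3.42 ± 0.83 (SD, n = 5 libraries), in 5 of 5 libraries each.

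The order was different in non-tuft epithelial cells. Mgst3 was again first (5.94) and above Ggt1 (3.67) in all 5 libraries. Below it, Ggt1, Ltc4s (2.99), Alox5 (2.35) and Alox5ap (2.26) overlapped, and no neighbouring pair among them kept 1 order in every library. The difference between Ltc4s, which forms leukotriene C4, and Ggt1, which consumes it, was 7.14 ± 0.68 on the log2 scale in tuft cells and -0.68 ± 2.43 in non-tuft epithelial cells (SD, n = 5 libraries each). Ltc4s was the higher of the pair in 5 of 5 tuft libraries and 2 of 5 non-tuft libraries.

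Alox5, Alox5ap and Ltc4s were not evenly low in the non-tuft libraries. Each had its lowest values in libraries 3 and 4 and higher values in libraries 1, 2 and 5. On the linear scale, obtained by removing the logarithm and the added 1, Alox5 in non-tuft library 5 was at 14.3% of its mean in the tuft libraries. Alox5ap was at 7.84% and Ltc4s at 6.65% in that library. In non-tuft library 4 these shares were 0% for Alox5 and Alox5ap and 0.234% for Ltc4s.

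Tuft markers followed a like pattern. Shares were read for those with a mean log2 level of at least 4 in the tuft libraries. These 9 were Siglecf, Dclk1, Pou2f3, Trpm5, Avil, Gfi1b, Il25, Hmx2 and Vav1. The filter left out Gnat3 and Chat, with tuft means of 3.74 and 2.97. Gnat3 was at 2.46 and 2.91 in non-tuft libraries 1 and 5, and Chat at 2.07 in library 2. Each was otherwise at the lowest listed value in the non-tuft libraries. For the 9 markers, the median share of the tuft mean was 1.51%, 10.1%, 0%, 0% and 8.66% in non-tuft libraries 1 to 5. Their highest shares were 14.4%, 48.9%, 0.183%, 0% and 25.7%, and their lowest share was 0% in every non-tuft library but library 2 (0.261%). Mgst3 stood apart from this, at 4.84% and 5.20% in libraries 3 and 4, where nearly all marker signal was missing, and at 18.2% in library 2. Pla2g7 did not follow the median of the markers either. It was at 0% in libraries 1, 4 and 5 and at the lowest listed value in library 2 (0.478%). Only in library 3 was it above that value (1.00%), where the highest marker share was 0.183%. The tuft marker Siglecf was at 0% in every non-tuft library but library 2. Whether a few tuft cells in the non-tuft sort carried the enzyme signal was not tested.

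**Figure D3:**
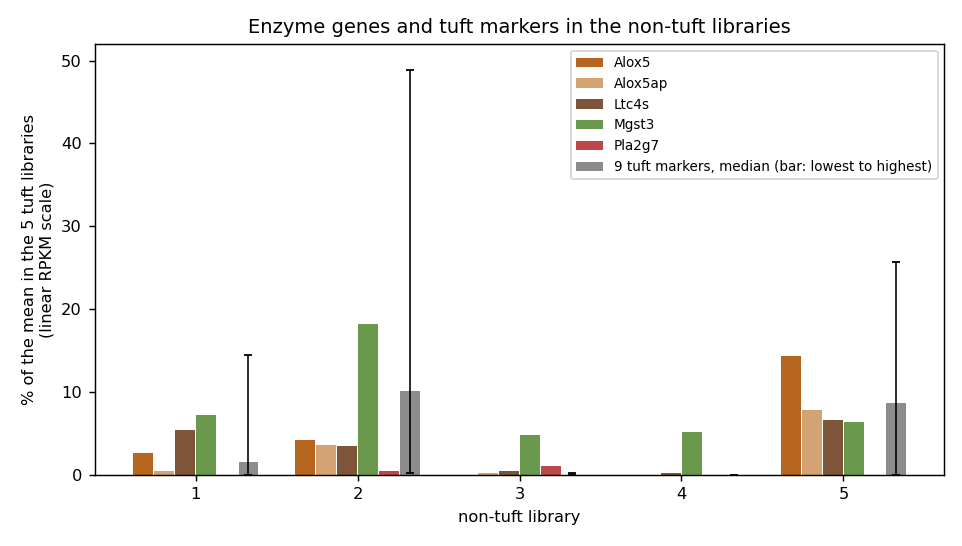
Linear RPKM of 5 enzyme genes in each non-tuft library (horizontal axis) as a percentage of the mean over the 5 tuft libraries, with the median of 9 tuft markers in grey and a black bar from their lowest to their highest share. Libraries 3 and 4 hold almost no Alox5, Alox5ap or tuft marker signal but retain Mgst3 at about the same share as each other (4.84% and 5.20%).

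Several of these enzymes are also well known in blood cells, so leukocyte genes were read beside them. The sort removed Cd45+ cells. Ptprc, which encodes Cd45, was at 3.97, 4.33, 2.74, 2.74 and 3.45 in tuft libraries 1 to 5 and no higher than 1.93 in a non-tuft library (limma adjusted p = 0.00292). It was the single leukocyte marker called of 10 measured from a list of 16, and it was higher in tuft cells. The others, among them Lyz2, Csf1r, C1qa, Cd68, Tyrobp and Coro1a, were each at the lowest listed value in 2 to 4 tuft libraries. The summed linear level of the 10 markers was 15.9 to 54.9 RPKM in the tuft libraries and 3.42 to 55.7 RPKM in the non-tuft libraries. For comparison, the mean over the tuft libraries was 254 RPKM for Alox5 and 399 RPKM for Alox5ap. Non-tuft library 5, which had the highest Alox5, Alox5ap and Ltc4s of its group, also had the highest leukocyte sum. Among the tuft libraries, library 3 had the highest sum (54.9 RPKM), with Lyz2 at 4.92 and Csf1r at 2.69, and library 5 the next (36.7 RPKM). Tuft library 3 also had the highest Alox5 (8.95) and Pla2g7 (5.07) of its group, but the lowest Ltc4s (8.06) and Mgst3 (9.21). Alox5ap was highest in tuft libraries 5 (8.94) and 3 (8.89). Of the mast cell list, Kit and Hdc were measured. Kit was higher in tuft cells, with a log2 fold change of 2.02 (limma adjusted p = 0.0300), and Hdc was at the lowest listed value in 4 of 5 libraries of each group. Siglec f also marks eosinophils. Lists of 6 eosinophil and 7 neutrophil genes were looked up as well, but none of these genes was among the 12160 analysed here. Whether leukocytes carried part of the enzyme signal was not tested.

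Markers of several cell types were read in both groups, beside 4.32% of all genes called higher and 3.99% called lower. Of 11 tuft markers measured, all 11 were called higher in tuft cells, and of 14 acinar markers, 11 were called lower. The 11 tuft markers include Siglecf, whose protein was used to sort the groups, so its call is no independent check of identity. Of 8 ductal markers 1 was called lower, of 8 islet markers 3, and of 6 fibroblast and endothelial markers none. The summed level of those 6 was 0 RPKM in 4 tuft libraries and 181 RPKM in tuft library 5, and reached 628 RPKM in non-tuft library 5. Acinar transcripts remained in the tuft libraries, with a summed level from 735 RPKM in tuft library 5 to 68751 RPKM in tuft library 4. Islet transcripts differed widely between the non-tuft libraries, with a summed level of 21614, 586, 2388, 2.71 and 2428 RPKM in libraries 1 to 5, and reached at most 31.2 RPKM in a tuft library. All 5 enzyme genes that were higher in tuft cells were lower in the acinar-rich tuft library 4 than in tuft library 5, with the smallest gap for Ltc4s (8.24 and 8.36) and the largest for Alox5 (7.47 and 8.45). This did not hold for every acinar-poor library. Tuft library 3, with an acinar sum of 7481 RPKM, had lower Ltc4s (8.06) and Mgst3 (9.21, against 9.29) than library 4. Alox5, Alox5ap and Pla2g7 were higher in library 3 than in library 4. Tuft libraries 1 and 2, with acinar sums of 26193 and 19233 RPKM, had the highest Ltc4s (8.47 and 9.05) and Mgst3 (9.73 and 10.39). They also had the lowest Alox5 (7.20 and 6.75) and Pla2g7 (3.95 and 4.73). Alox5ap was at 8.18 and 8.54 there, and at 8.54 in library 4. The part of acinar or islet RNA in the values of the enzyme genes was not tested.

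The other genes of the pathway were read from a list of 62, of which 36 were measured. Of these 36, 3 were called higher and 1 lower in tuft cells, or 8.33% and 2.78%, beside 4.32% and 3.99% of all genes. With counts this small the list was not taken to differ from the background. Their median log2 fold change was -0.33, beside 0.02 for all genes, or -0.28 beside 0.04 when genes at the lowest listed value throughout a group were left out.

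Upstream of Alox5, the phospholipases A2 moved in both directions. Pla2g4a, the cytosolic phospholipase A2 that supplies arachidonic acid, was at 6.09 to 7.20 in the tuft libraries (median 6.49). It was at 0.17 to 4.84 in the non-tuft libraries (median 2.46), with a log2 fold change of 3.82 (SE 0.72, limma adjusted p = 0.00376). Pla2g16, a phospholipase of adipose tissue, was at 9.13 to 9.30 in the tuft libraries and 6.56 to 7.37 in the non-tuft libraries, a log2 fold change of 2.36 (limma adjusted p = 6.72e-04). Pla2g1b, the digestive phospholipase A2 that acinar cells secrete, was at 1.83 to 6.67 in the tuft libraries and 7.60 to 10.82 in the non-tuft libraries, with a log2 fold change of -4.77 (limma adjusted p = 0.00384). The groups did not overlap for any of these 3 genes. The other 9 phospholipases measured were not called.

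At the branch point, Lta4h was at 1.97 to 4.09 in the tuft libraries and 2.26 to 5.18 in the non-tuft libraries. It was not called, with a log2 fold change of -0.99 (95% confidence interval -2.33 to 0.35, limma adjusted p = 0.355). In the tuft libraries Lta4h was thus far below Ltc4s, at a mean of 3.28 against 8.44. Mgst1 and Mgst2, relatives of Ltc4s, were not called either. Mgst2 was at 5.19 to 6.44 in the tuft libraries, and in the non-tuft libraries it was at 4.82 to 5.29 apart from library 1, where it was listed at 0. Mgst1 had a log2 fold change of -1.39 (limma adjusted p = 0.0685). The transporter Abcc1, which exports leukotriene C4, had a log2 fold change of -1.15 (limma adjusted p = 0.161).

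Among breakdown enzymes other than Ggt1, Cyp4f14, a cytochrome P450 of the leukotriene B4 hydroxylase family, was called higher, with a log2 fold change of 2.10 (limma adjusted p = 0.0357). Its values were low, from 0.29 to 3.73 in the tuft libraries and at most 0.98 in the non-tuft libraries, and the groups overlapped. The call was lost when any 1 library other than non-tuft library 4 or tuft library 3 was left out (limma adjusted p up to 0.0878). Ptgr1, which oxidises leukotriene B4, had a log2 fold change of -2.11 (limma adjusted p = 0.0521).

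None of the 8 PAF synthesis genes or of the 4 other PAF acetylhydrolase genes measured was called. Lpcat2, the acetyltransferase that makes PAF in inflammatory cells, was at the lowest listed value in 4 of 5 libraries of each group. Chpt1, a cholinephosphotransferase, had a log2 fold change of -1.70 (limma adjusted p = 0.0260), which did not reach a fold of 4. Pla2g7 was thus the single gene called among those listed here under PAF synthesis or breakdown. The phospholipases A2, among them Pla2g4a, were listed separately. Ggt5 and the leukotriene and PAF receptor genes, including Cysltr1, Cysltr2, Ltb4r1 and Ptafr, were looked up too, but were not among the 12160 genes analysed here.

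**Figure D4:**
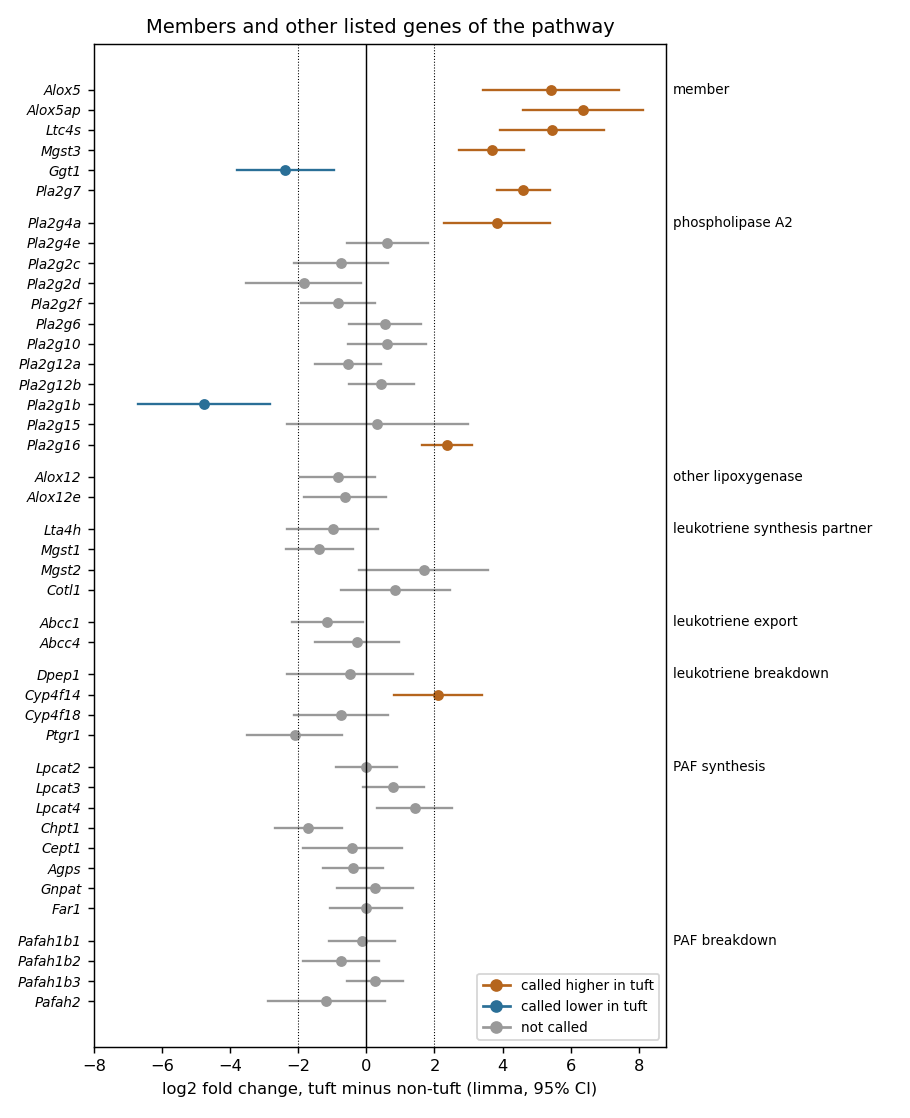
Log2 fold change (tuft minus non-tuft, horizontal axis) with its 95% confidence interval from limma for the 6 enzyme genes and the 36 other genes of the pathway, grouped by role at right. Brown marks genes called higher, blue genes called lower and grey genes not called; dotted lines mark a fold of 4. The synthesis genes Alox5, Alox5ap and Ltc4s lie between 5.42 and 6.35, while 32 of the 36 other pathway genes were not called.

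To find genes with a like pattern, every listed gene was centred on its own mean and compared over the 10 libraries by the root mean square difference on the log2 scale. Avil, which encodes the actin regulator advillin of tuft cells, was nearest to both Alox5 (0.55) and Alox5ap (0.60). After it came Rbm38 and Sh2d7 for Alox5, and Cd300lf and the taste channel gene Trpm5 for Alox5ap. Ltc4s was nearest to Plac8 (0.40), followed by Sh2d7 and Snrnp25. Mgst3 was nearest to 4930539E08Rik (0.39), S100a1 and the phospholipase C gene Plcb2, and Pla2g7 to Pstpip1 (0.36), Clec4a1 and 9630028I04Rik. All of these were called higher in tuft cells. Ggt1 was nearest to Hmmr (0.32), Fyn and Enpep, which were called lower. Between the members, Alox5 and Alox5ap differed by 0.82, and only 4 listed genes were nearer to Alox5 than Alox5ap was. Because the group difference enters this measure, it describes level patterns and carries no test.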

How the data were processed

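The authors sequenced 50 bp single-end reads, checked them with FastQC, aligned them to mm9 using HISAT2 and obtained RPKM through StringTie and Ballgown. Genes whose RPKM variance was under 1 had been removed, and the deposited table holds log2 values of RPKM, quantile normalized across the 10 libraries. A lowest value of 0 shows that 1 was added. The table holds no counts, so depth is unknown, and a listed 0 sets no limit on expression. The fold change, p-value and false discovery rate columns of the authors were not used.

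Tuft and non-tuft libraries were compared over all 12160 genes with limma 3.58.1 (R 4.3.3, lmFit and eBayes, no covariates, Benjamini-Hochberg adjustment), after a test on simulated data, and single genes by exact permutation (scipy 1.17.1). The members, lists and tests were chosen with earlier results of these data known. Named are the 6 members, the called pathway genes, 10 further pathway genes and the 3 genes nearest to each member. Other named genes, and the GC box, were chosen after values or sequences were seen. Gene positions are from GENCODE vM1 (NCBIM37). Alternatives were a replicate block, pseudocounts of 0.1 and 10, a mean log2 filter of 2, the trend and robust options of eBayes, centring on ribosomal protein genes, other thresholds, treat, a floor of 0 and leaving out each library.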

Additional observations from a re-analysis of the deposited data

How the results depend on the processing

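No member changed direction under any of the 20 alternatives. Tested against a fold of 4 with limma's treat, 105 genes were called in place of 1010, and 3 members remained called (Alox5ap, Ltc4s and Pla2g7). Alox5 (5.42, limma adjusted p = 0.112), Mgst3 (3.68, limma adjusted p = 0.107) and Ggt1 (-2.38) were not. Of the other pathway genes treat called 0 and the moderated test called 4. At an unadjusted p under 0.05 there were 2 with treat and 10 with the moderated test. With 10 added to each RPKM, 278 genes were called, and the log2 fold changes of Pla2g7 (1.81) and Ggt1 (-1.08) no longer met the thresholds. Ggt1 also lost its call when centred on ribosomal protein genes (-1.61), at an adjusted p under 0.01 (-2.38), and in 7 of 10 omissions of a library (-2.88 to -1.97). The causes of these losses were not tested. Over all omissions 841 to 1010 genes and 5 to 6 members were called. With the replicate number as a block, 1009 genes were called and Ggt1 was lost (-2.38, limma adjusted p = 0.0566), the one member call it changed. Both groups came from 5 mice, but the sources used here do not tie a number to a mouse. The deviations of same-numbered libraries correlated by 0.062 to 0.240 over genes, and those of differently numbered libraries by -0.174 to 0.139. Not every library correlated best with its own number. These values do not settle whether the numbers mark pairs, so the fit without pairs and the fit with the block are both given. Without read counts, low values such as those of Ggt1 and Cyp4f14 can be given no counting error.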
